A study of Mus musculus with 6 samples.

Results

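Peptides are shown to T cells by 2 classes of major histocompatibility complex (MHC) molecules, and 10 mouse genes of this system were followed in livers of Mdr2 knockout mice given vehicle or lycorine, an alkaloid of Amaryllidaceae plants. They are the class I genes H2-K1, H2-D1, B2m and Tap1 and the class II genes H2-Aa, H2-Ab1, H2-Eb1, Cd74, H2-DMa and H2-DMb1. The 10 were listed by name, matched by gene symbol to Ensembl identifiers, and found among the 58601 rows of the deposited expression table. The tissue is whole frozen liver, with 3 libraries per group. Both groups carry the same genotype, written as Mdr2 knockout, as Mdr2-/- and, in the growth protocol, as Mdr2-HKO, which is not spelled out there. Mdr2 is the older name of Abcb4, the canalicular phospholipid transporter. The mice were 8 weeks old when treatment with vehicle or lycorine began, and it lasted 2 weeks. The sources used here give no dose, route, sex or strain, and no wild-type livers enter the comparison. The labels do not say that each library is a separate animal, so each p-value speaks only to variation among these 6 libraries, some of which may be technical.

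As background, class I molecules are found on nearly all nucleated cells and present peptides made inside the cell, cut by the proteasome, carried into the endoplasmic reticulum by the TAP transporter and loaded on a heavy chain joined to beta-2-microglobulin. Class II molecules are found mainly on professional antigen-presenting cells (dendritic cells, macrophages and B cells) and present peptides of proteins taken up from outside. Their alpha and beta chains are guarded by the invariant chain Cd74 until H2-DM exchanges its remnant for a peptide. Interferon gamma induces both classes, class II through the co-activator Ciita and class I in part through its relative Nlrc5. In liver, class I comes from hepatocytes and from all other cells, and class II from the minority of immune and some other non-parenchymal cells.

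Values are TPM (transcript abundances with the same total in every library), which are scaled for transcript length, so levels can be set side by side between genes. Between libraries each value is a share of that total, so it also depends on what else the library holds. Depth is unknown for all 6 libraries. The libraries differed in makeup: the share of TPM on nuclear protein-coding genes was 51.5% for vehicle 3 against 63.7% to 78.1% elsewhere, and rows without a GENCODE name held 10.8% in vehicle 3 and at most 4.10% elsewhere. The 63.7% was that of vehicle 2. Mitochondrial genes held 19.7% in vehicle 2 and 20.1% in vehicle 3, against 9.48% to 13.2% in the remaining libraries, so makeup differed in part along the groups. The hepatocyte markers checked against the tissue label were present in all 6 libraries, with albumin (Alb) between 5039 and 19785 TPM and lowest in vehicle 3. Vehicle 3 was often lowest in genes of the class I route, and several values of these genes are also given without it. Such values still hold vehicle 2. Over all tested rows vehicle 3 was lowest in 34.1% and vehicle 2 in 38.5%.

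Class II transcripts varied severalfold between libraries, and the variation crossed the groups. Cd74, H2-Ab1, H2-Aa and H2-DMa were highest in vehicle 1, next in lycorine 1 and lowest in lycorine 3. Class I transcripts varied less, with B2m, H2-K1 and H2-D1 lowest in vehicle 3. None of the 9 members tested differed between lycorine and vehicle (limma with Benjamini-Hochberg adjustment over 13854 rows), where the background is 0% of all rows, and 0 of the 9 had an unadjusted p under 0.05, where the background is 3.44% or 476 rows (2.79% higher and 0.65% lower in lycorine). In all 10 the libraries of the groups overlapped, against a background of 10.6% of rows whose groups do not overlap.

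**Figure D1:**
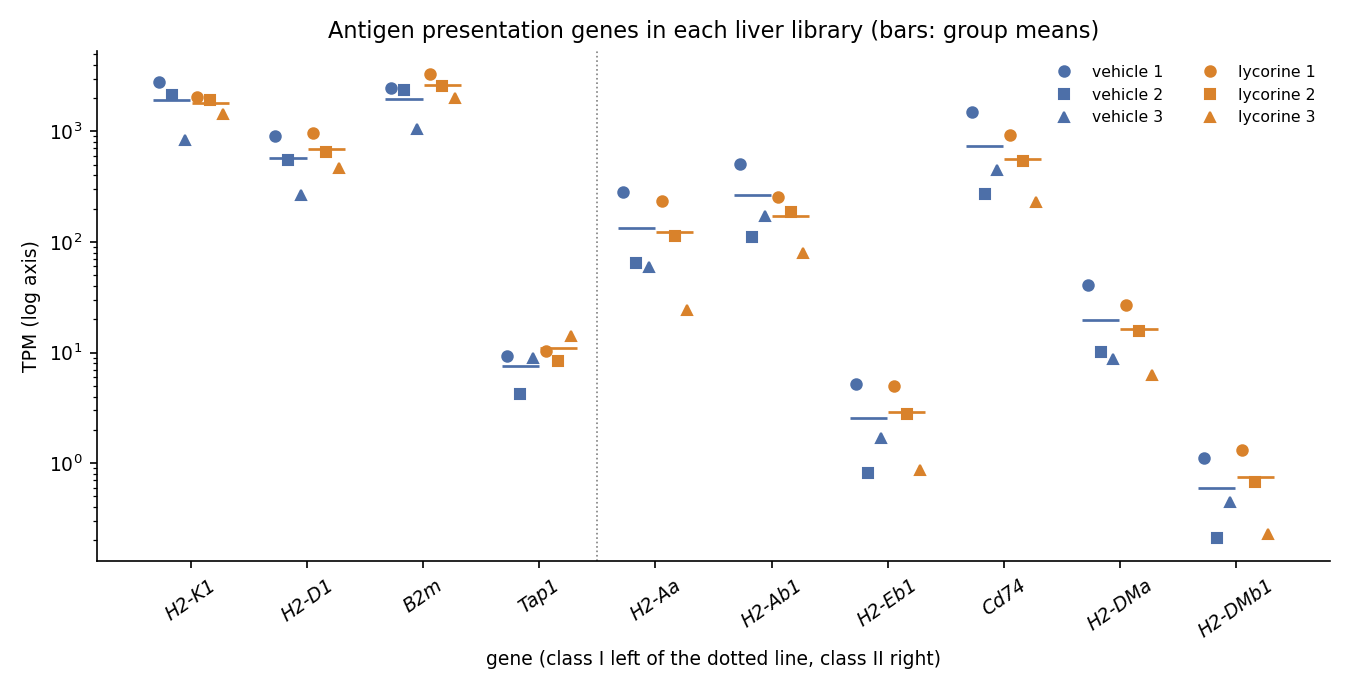
TPM on a log axis for the 10 genes in each of 6 libraries (circles, squares and triangles for libraries 1, 2 and 3 of each group; bars are group means, n = 3). Within class II the circles of vehicle 1 and lycorine 1 lie at the top of every gene and the groups overlap throughout.

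The promoters of class II genes carry conserved elements known as the X box and the Y box, which bind the RFX and NF-Y factors that recruit Ciita, and class I and B2m promoters carry related elements and an interferon-stimulated response element. RefSeq windows on GRCm38.p6, reaching from 250 bases before to 50 bases after a transcription start, were found for 8 of the 10 genes, all but H2-Ab1 and Cd74. The 4 windows below are shown because they hold matches to short cores of these elements. They belong to 2 class II chains of very different level and to a class I heavy chain and its partner. Capitals mark matches, on either strand, to 4 short cores: GATTGG for the Y box, GCAAC for the X box, GAAANNGAA for the interferon-stimulated response element and TTCNNNGAA for the interferon gamma activated site.
H2-Aa, chr17:34287774-34288073, minus strand: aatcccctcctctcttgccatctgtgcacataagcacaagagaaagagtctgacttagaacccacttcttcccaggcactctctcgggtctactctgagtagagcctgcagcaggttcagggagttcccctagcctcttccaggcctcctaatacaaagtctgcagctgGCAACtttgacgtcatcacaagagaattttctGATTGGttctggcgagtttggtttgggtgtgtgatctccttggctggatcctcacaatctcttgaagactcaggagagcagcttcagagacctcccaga
H2-Eb1, chr17:34305617-34305916, plus strand: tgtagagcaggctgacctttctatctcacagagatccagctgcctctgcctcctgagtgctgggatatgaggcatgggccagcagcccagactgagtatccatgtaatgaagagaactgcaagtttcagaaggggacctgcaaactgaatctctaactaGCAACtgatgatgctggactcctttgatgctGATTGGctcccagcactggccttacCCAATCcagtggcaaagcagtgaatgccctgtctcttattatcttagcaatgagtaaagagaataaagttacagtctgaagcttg
H2-D1, chr17:35262844-35263143, plus strand: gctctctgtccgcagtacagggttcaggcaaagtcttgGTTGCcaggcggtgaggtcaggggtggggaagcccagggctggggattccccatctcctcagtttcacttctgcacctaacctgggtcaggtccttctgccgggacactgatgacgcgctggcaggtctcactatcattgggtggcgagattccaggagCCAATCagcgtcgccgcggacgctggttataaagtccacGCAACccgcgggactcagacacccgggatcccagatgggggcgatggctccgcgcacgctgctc
B2m, chr2:122147437-122147736, plus strand: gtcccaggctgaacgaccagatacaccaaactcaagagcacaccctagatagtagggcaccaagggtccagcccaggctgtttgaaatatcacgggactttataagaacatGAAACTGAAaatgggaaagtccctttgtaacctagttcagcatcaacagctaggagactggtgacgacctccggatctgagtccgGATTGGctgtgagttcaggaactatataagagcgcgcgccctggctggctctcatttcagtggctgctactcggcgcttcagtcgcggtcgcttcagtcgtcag

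H2-Aa and H2-Eb1 both held an X box core followed on the same strand by a Y box core, with 32 and 31 bases from the first base of one to the first base of the other. A Y box core was found in at least 1 window of each of the 8 genes (H2-Aa, H2-Eb1, H2-DMa, H2-DMb1, H2-K1, H2-D1, B2m and Tap1), and in 16.1% of all 32851 promoter windows of that length. An X box core was found in 5 of the 8 (H2-Aa, H2-Eb1, H2-DMa, H2-D1 and Tap1), against 35.2% of all windows. Both cores stood together in 6.05% of all windows. The counts by gene are over any window of a gene, while the shares are over single windows. H2-K1 and H2-DMa had more than 1 window, and H2-DMa held its X box core and its Y box core in different ones. The response element core was found in B2m alone among the 8, against 8.56% of all windows, and the activated site in none, against 8.30%. No matches overlapped one another in these windows. A match of this kind is a description of letters and does not show that a factor binds. The lack of a match does not show that an element is absent, because each was searched for in a single spelling. Other spacings of the response element were not searched for, so the H2-K1 and H2-D1 promoters were not shown to lack it.

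The chains that form the class II molecule I-A were strongly expressed. H2-Aa, the alpha chain, on chromosome 17 from 34282744 to 34287823 of GRCm38, was at 280.9, 64.3 and 59.4 TPM in the vehicle libraries against 235, 112 and 24.5 TPM with lycorine. Vehicle 1 and lycorine 1 were high, and the lowest of all was a lycorine library. The group means were 135 ± 127 and 124 ± 106 TPM (SD, n = 3 each), and the log2 fold change was -0.23 with a 95% interval of -2.35 to 1.88 (limma adjusted p = 0.954).

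H2-Ab1, the beta chain, on chromosome 17 from 34257689 to 34269419, was at 510.4, 110.3 and 173 TPM in the vehicle libraries against 253, 185 and 79.04 TPM with lycorine. One vehicle library lay above all lycorine libraries and the others lay among them. Its log2 fold change was -0.46, with an interval of -1.98 to 1.05 (limma adjusted p = 0.873). The ratio of H2-Ab1 to H2-Aa was between 1.08 in lycorine 1 and 3.23 in lycorine 3, and was 2.92 in vehicle 3.

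H2-Eb1, the beta chain of the other class II molecule, I-E, was present at a small part of the level of H2-Ab1. On chromosome 17 from 34305867 to 34316674, it was at 5.16, 0.82 and 1.70 TPM in the vehicle libraries against 5.02, 2.78 and 0.86 TPM with lycorine. Vehicle 1 and lycorine 1 again stood highest, and vehicle 2 and lycorine 3 lowest. H2-Ab1 exceeded H2-Eb1 98.9-fold to 134-fold within the vehicle libraries and 50.4-fold to 91.9-fold with lycorine. The log2 fold change of H2-Eb1 was 0.16, with an interval of -1.24 to 1.56 (limma adjusted p = 0.951). H2 genes differ in sequence between mouse strains and the reference genome is that of C57BL/6J, so with the strain not given, levels set between H2 genes are uncertain.

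Cd74, the invariant chain, was the most abundant class II gene in every library. On chromosome 18 from 60803848 to 60812652, it was at 1501, 273 and 449 TPM in the vehicle libraries against 922, 538 and 227 TPM with lycorine. Its spread within vehicle was 5.5-fold and within lycorine 4.06-fold, while the group means were 741 ± 664 and 562 ± 348 TPM (SD, n = 3 each). The log2 fold change was -0.24 with an interval of -1.93 to 1.46 (limma adjusted p = 0.940). Cd74 and H2-Ab1 kept nearly the same ratio in all libraries, between 2.47 and 3.64, although they varied 6.61-fold and 6.46-fold.

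The peptide editor H2-DM is made of an alpha chain, H2-DMa, and a beta chain that mice encode in a pair of copies, H2-DMb1 and H2-DMb2. H2-DMa, on chromosome 17 from 34119541 to 34139101, was at 40.9, 10.02 and 8.67 TPM in the vehicle libraries against 26.9, 15.8 and 6.29 TPM with lycorine. Its libraries stood in the same sequence from high to low as those of H2-Aa. The log2 fold change was -0.13 with an interval of -1.74 to 1.49 (limma adjusted p = 0.967). H2-DMb1, on chromosome 17 from 34153072 to 34160230, was at 1.12, 0.21 and 0.45 TPM in the vehicle libraries against 1.32, 0.68 and 0.23 TPM with lycorine, which left its mean over the 6 libraries under the minimum of 1 TPM for testing. H2-DMb2, from the list of related genes, was at 44.5, 13.7 and 14.4 TPM in the vehicle libraries against 38.9, 24.5 and 7.64 TPM with lycorine, between 1.09 and 1.66 times H2-DMa. The coding sequences of H2-DMb1 and H2-DMb2 are identical at 95.9% of 783 bases, so reads can be split between the copies and the level of either one is uncertain.

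All 6 class II genes had vehicle 1 and lycorine 1 above the other 4 libraries, as did 26.5% of the 13854 tested rows. In 5 of the 6, the exception being H2-DMb1, vehicle 1 exceeded lycorine 1, which exceeded lycorine 2, which exceeded the remaining 3 libraries, a sequence shared by 5.95% of tested rows. Lycorine 3 was lowest in 4 of the 5 that were tested and in 9.25% of all tested rows. These patterns were noticed in the data and carry no test.

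**Figure D2:**
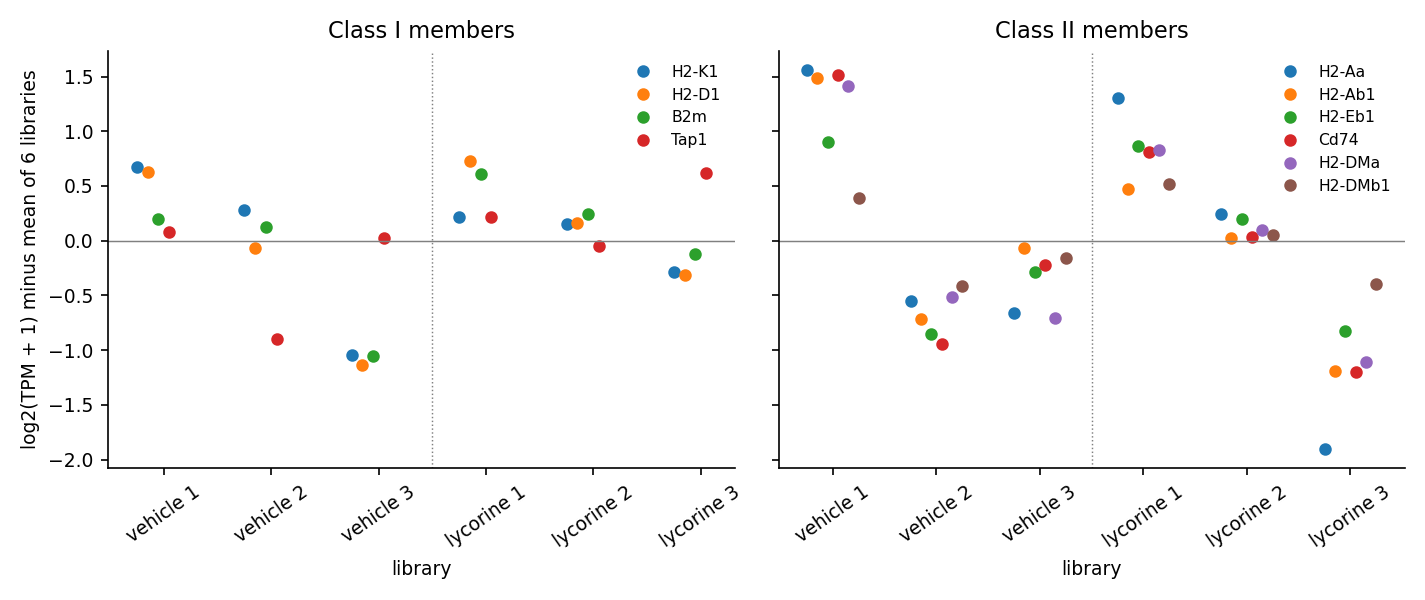
Each point is log2(TPM + 1) of a gene in a library minus the mean of that gene over 6 libraries, with class I genes on the left and class II genes on the right. Class II genes are above their mean in vehicle 1, lycorine 1 and lycorine 2 and below it in vehicle 2, vehicle 3 and lycorine 3, while H2-K1, H2-D1 and B2m are lowest in vehicle 3.

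The class I heavy chains were among the most abundant transcripts of the 10. H2-K1, on chromosome 17 from 33996017 to 34000347, was at 2777, 2111 and 843 TPM in the vehicle libraries against 2023, 1935 and 1426 TPM with lycorine. The lycorine libraries all lay inside the range of vehicle, and the group means were 1910 ± 983 and 1794 ± 322 TPM (SD, n = 3 each). Its log2 fold change was 0.06 with an interval of -1.01 to 1.13 (limma adjusted p = 0.978), and -0.45 without vehicle 3.

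H2-D1, the second classical heavy chain, on chromosome 17 from 35262730 to 35267499, was at 899, 554 and 264 TPM in the vehicle libraries against 961, 649.7 and 468 TPM with lycorine. Libraries of both groups alternated from high to low, with vehicle 3 last. The log2 fold change was 0.38 with an interval of -0.77 to 1.54 (limma adjusted p = 0.863), and -0.09 without vehicle 3. H2-K1 exceeded H2-D1 3.09-fold to 3.81-fold within the vehicle libraries and 2.11-fold to 3.05-fold with lycorine. Their coding sequences are identical at 92.0% of aligned bases, so reads can be shared between them and with other heavy chains.

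B2m, the invariant partner of all class I heavy chains, on chromosome 2 from 122147686 to 122153083, was at 2477, 2364 and 1039.6 TPM in the vehicle libraries against 3299, 2558 and 1995 TPM with lycorine. A pair of lycorine libraries lay above all vehicle libraries and the third lay below vehicle 1 and vehicle 2. The log2 fold change was 0.49 with an interval of -0.45 to 1.43 (limma adjusted p = 0.832), and 0.08 without vehicle 3. TPM of B2m per TPM of H2-K1 and H2-D1 together was 0.674, 0.887 and 0.940 for the vehicle libraries against 1.11, 0.990 and 1.05 with lycorine. Of 15 ratios computed the groups did not overlap in 3, with lycorine above in this one and below in H2-Ab1 per H2-Eb1 and H2-K1 per H2-D1. None of the 15 was tested, and several share genes. The share over ratios of other genes was not computed, and among single tested rows the groups did not overlap in 10.6%.

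Tap1, a subunit of the peptide transporter, was expressed at a far lower level than the other class I genes. On chromosome 17 from 34187553 to 34197225, it was at 9.33, 4.24 and 8.95 TPM in the vehicle libraries against 10.4, 8.41 and 14.0 TPM with lycorine. Vehicle 2 was low and lycorine 3 high, a profile unlike that of the other class I genes. Its log2 fold change of 0.53, with an interval of -0.34 to 1.39, had the smallest p of the 9 (limma unadjusted p = 0.195, adjusted p = 0.832). An exact two-sided permutation test over the 20 ways to divide the libraries, which cannot go below 0.1, gave 0.3 for Tap1 and between 0.4 and 1 for the other 9 genes.

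**Figure D3:**
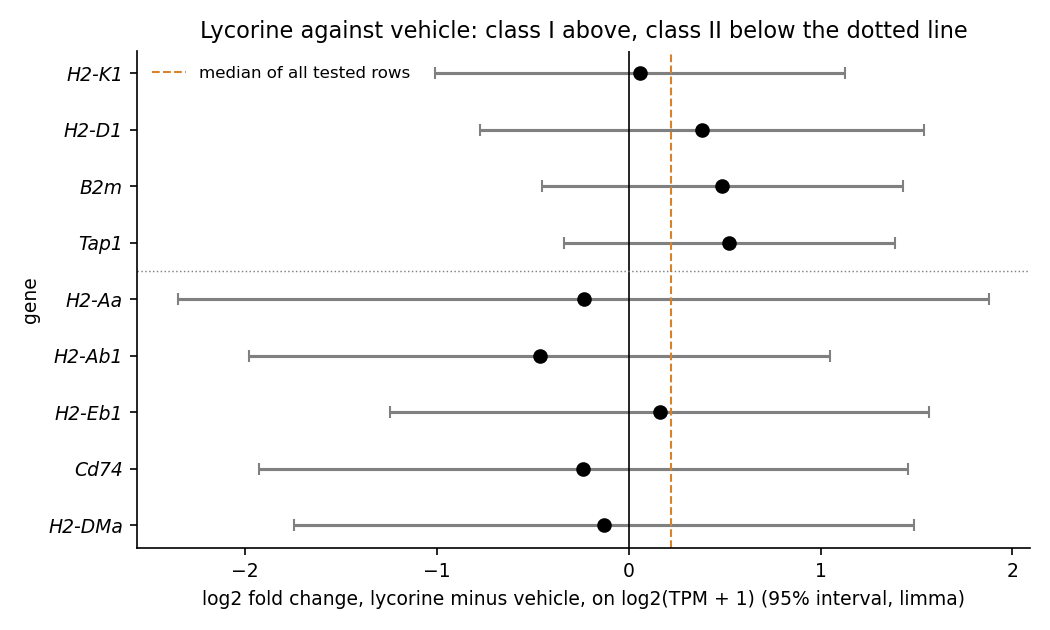
Points are log2 fold changes of lycorine against vehicle for the 9 tested genes and bars are 95% intervals from limma (n = 3 each); the dashed line is the median of all tested rows, 0.22. Every interval spans 0, from the narrowest in Tap1 to the widest in H2-Aa.

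Class I and class II were then set against each other. The 4 class I genes had log2 fold changes of 0.06 to 0.53 with a median of 0.44, and the 5 tested class II genes had -0.46 to 0.16 with a median of -0.23, where the median of all tested rows was 0.22. With median-of-ratios scaling between libraries the median of all rows was -0.02, and the medians of class I and class II were 0.12 and -0.54. Within a library, the mean log2(TPM + 1) of class I minus that of class II was 2.84, 4.19 and 3.21 for the vehicle libraries against 3.30, 3.68 and 4.74 with lycorine. The means were 3.41 ± 0.69 and 3.91 ± 0.75 (SD, n = 3 each), so the groups differed by 0.49, less than the spread within either, and the libraries overlapped. The difference was 0.08 without lycorine 3, 0.21 without vehicle 1, 0.80 without lycorine 1 and 0.88 without vehicle 2, and -0.03 without vehicle 3 and lycorine 3 together. The median of class II was 0.49 without vehicle 1 and 0.40 without lycorine 3, so its direction rests on those libraries, and that of class I was -0.0035 without vehicle 3. No list was tested, because the genes were chosen with earlier results known.

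**Figure D4:**
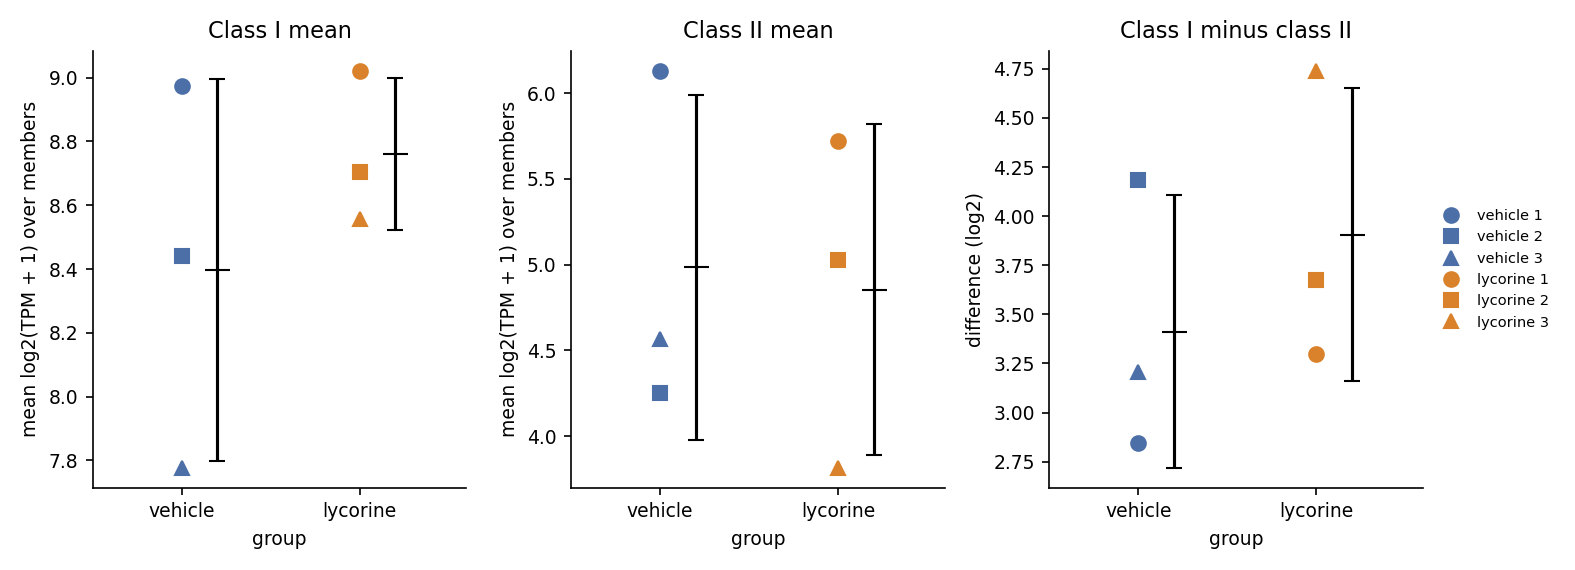
Mean log2(TPM + 1) over the 4 class I genes, over the 6 class II genes, and the difference of the 2, by group; coloured points are libraries and black bars are mean and SD (n = 3). The groups overlap in all 3 panels, and lycorine 3 has the highest difference, 4.74.

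Other genes of the class I route had log2 fold changes above 0, as most tested rows did, with no call. All 13 tested genes of peptide loading and the immunoproteasome had log2 fold changes above 0, with a median of 0.47, as did 9680 of all 13854 tested rows, and 0 of 13 had an unadjusted p under 0.05. Vehicle 3 was the lowest library in 9 of the 13, where the background is 34.1% of all tested rows. Without that library 11 of 13 were above 0 and the median was 0.21, where that of all rows was 0.20. Pdia3, a chaperone of the loading complex, had the lower mean TPM in lycorine, at 81.7 ± 51.9 and 77.5 ± 33.6 TPM (SD, n = 3 each). Canx, a chaperone of new heavy chains, was at 14.3, 12.5 and 16.4 TPM in the vehicle libraries against 24.8, 22.8 and 18.2 TPM with lycorine, the only one of the 13 whose groups did not overlap, where the background for lycorine above vehicle is 9.6%. Psmb9 and Psmb8 are interferon-induced subunits of the immunoproteasome. Psmb9 was at 42.2, 20.3 and 9.36 TPM in the vehicle libraries against 45.5, 46.7 and 36.7 TPM with lycorine, a log2 fold change of 1.05 (SE 0.51, limma adjusted p = 0.832), and of 0.53 without vehicle 3. Psmb8 was at 52.1 ± 17.7 and 72.7 ± 3.73 TPM and Tapbpl, a peptide editor related to tapasin, at 9.71 ± 3.05 and 16.2 ± 4.28 TPM (SD, n = 3 each). Tap2, the other subunit of the transporter, was at 16.9, 10.1 and 5.0 TPM in the vehicle libraries against 18.9, 12.4 and 11.02 TPM with lycorine, lowest in vehicle 3 like the heavy chains, with a log2 fold change of 0.47, and of 0.06 without that library.

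Among other class I heavy chains and class I-like genes, 13 of 16 listed were tested, all 13 had log2 fold changes above 0, and the median was 0.53, or 0.51 without vehicle 3. The groups did not overlap in 5 of 13, all with lycorine above, against the background of 9.6%. They were H2-Q1, H2-Q2, H2-T10, Cd1d1, which presents lipids to NKT cells, and Fcgrt, a receptor that recycles immunoglobulin G and albumin. H2-Q2 was at 1.18, 0.91 and 0.77 TPM in the vehicle libraries against 3.77, 3.95 and 2.43 TPM with lycorine, with a log2 fold change of 1.15 (SE 0.35, limma unadjusted p = 0.0114, adjusted p = 0.832). H2-Q1 was at 470.1, 463 and 311 TPM in the vehicle libraries against 490.4, 772 and 746 TPM with lycorine. H2-T10 was at 24.6 ± 5.15 and 40.2 ± 8.09 TPM and Fcgrt at 72.8 ± 4.37 and 106 ± 18.1 TPM (SD, n = 3 each). H2-Q10, a secreted heavy chain of hepatocytes, was at 72.4, 136 and 62.3 TPM in the vehicle libraries against 293, 182 and 89.9 TPM with lycorine. H2-Q1 and H2-Q10 share 86.6% and 88.1% of aligned coding bases with H2-K1, and values of this family are uncertain for the same reason as above.

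Genes of the class II route followed the libraries more than the groups. Of 10 listed, 8 were tested, 4 had log2 fold changes above 0 and 4 below, and 0 were called. All 8 had vehicle 1 and lycorine 1 above the other 4 libraries, against 26.5% of all tested rows. Ctss, a protease that trims the invariant chain, was at 60.6, 17.0 and 12.6 TPM in the vehicle libraries against 70.6, 18.7 and 5.96 TPM with lycorine. Its spread over the libraries was 11.8-fold, beside 11.5-fold for H2-Aa, which stood at higher TPM. Ifi30, a thiol reductase of endosomes, was at 59.8 ± 50.4 and 60.8 ± 20.7 TPM (SD, n = 3 each). Ctsb, Ctsd and Ctsl, lysosomal proteases, had log2 fold changes of 0.44, 0.27 and 0.21 (limma adjusted p of 0.833 to 0.914).

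The 16 transcription factors of MHC genes were all tested, with 10 log2 fold changes above 0, 6 below, 0 called and groups that overlapped in all 16. Ciita, the co-activator of class II genes, did not have the profile of its known targets. It was at 3.8, 3.43 and 0.47 TPM in the vehicle libraries against 1.04, 0.56 and 10.8 TPM with lycorine, highest in lycorine 3, where 4 of the 5 tested class II genes were lowest. Nlrc5, the co-activator of class I genes, was at 7.75, 4.45 and 6.83 TPM in the vehicle libraries against 5.56, 8.12 and 11.1 TPM with lycorine. Lycorine 3 was its highest library, as it was for Tap1, Psmb10, Rfxank and Irf2. Rfx5, Rfxap and Rfxank, the RFX subunits that bind the X box, had log2 fold changes of -0.04, 0.71 and 0.41, and Nfya, Nfyb and Nfyc, the NF-Y subunits that bind the Y box, had 0.24, 0.15 and 0.29. Creb1, Irf1, Irf2, Irf8, Nfkb1 and Rela had values from -0.40 for Creb1 to 0.25 for Irf1. Spi1, the myeloid factor PU.1, was at 29.3, 6.75 and 9.40 TPM in the vehicle libraries against 15.1, 7.12 and 2.43 TPM with lycorine, highest in vehicle 1 and lowest in lycorine 3 as Cd74 was.

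Genes of signals that act on the MHC genes were read next. Ifng, the transcript of interferon gamma, was listed at 0 in 5 libraries and at 0.04 TPM in vehicle 2. Of 16 genes of interferon gamma signalling and its early targets 9 were tested, 4 had log2 fold changes above 0 and 5 below, with a median of -0.0041, and 0 were called. Igtp and Irgm1, interferon-induced GTPases, were at 4.72 ± 3.33 and 7.46 ± 2.55 TPM and at 5.0 ± 1.89 and 6.40 ± 1.80 TPM (SD, n = 3 each). Iigp1, another such GTPase, was at 26.9, 28.3 and 19.6 TPM in the vehicle libraries against 34.2, 28.6 and 29.6 TPM with lycorine. It was the only gene of the 9 tested whose groups did not overlap, where the background for lycorine above vehicle is 9.6%. Ifngr2, a receptor chain, was at 3.38 ± 2.44 and 5.04 ± 2.28 TPM. Of 8 genes of co-stimulation and class II turnover 4 were tested and 0 called. Cd83, which protects class II from turnover on dendritic cells, was at 10.6, 2.38 and 9.35 TPM in the vehicle libraries against 2.83, 1.97 and 3.49 TPM with lycorine, a log2 fold change of -1.0 (SE 0.50, limma adjusted p = 0.832). Cd86 was at 1.45 ± 0.587 and 1.34 ± 1.23 TPM, Icosl at 2.95 ± 2.28 and 2.20 ± 0.633 TPM and Cd40 at 1.55 ± 0.879 and 1.54 ± 0.393 TPM.

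Markers of the cells that could carry these transcripts were read beside them. In bulk liver, fewer cells of a type and less RNA per cell cannot be told apart. The summed TPM of the 6 class II genes varied 6.92-fold over the libraries. Over 12 markers of monocytes and recruited macrophages the sum was 679, 162 and 139 TPM in the vehicle libraries against 557, 299 and 115 TPM with lycorine. Over 8 bile duct markers it was 243, 55.8 and 58.3 TPM in the vehicle libraries against 241, 161 and 67.1 TPM with lycorine. Spp1, osteopontin, stands in both of these lists and made up 28.8% to 62.7% of the bile duct sum, which without it was 123, 24.6 and 41.5 TPM for vehicle and 110, 60.2 and 33.7 TPM for lycorine. Like class II, 8 of 9 tested monocyte and macrophage markers and 7 of 8 bile duct markers had vehicle 1 and lycorine 1 above the other 4 libraries, against 26.5% of all tested rows. The pattern was not particular to these lists. It was also held by 4 of 6 T and NK cell, 2 of 4 B cell, 2 of 5 dendritic cell, 2 of 7 sinusoidal and 2 of 10 hepatocyte markers. Among the gene lists it was held by 7 of 13 class I loading genes and 8 of 16 transcription factors. Ccr2 and Ly6c2, monocyte markers, were at 0.87 to 5.28 TPM and 0.47 to 2.14 TPM, Itgam was at 0 in 5 libraries and Chil3 in 4. Krt19, a keratin of bile ducts, was at 47.0, 9.65 and 13.7 TPM in the vehicle libraries against 30.8, 19.4 and 9.67 TPM with lycorine, and Krt7 was between 1.99 and 20.8 TPM. TPM of Cd74 per TPM of Krt19 lay between 23.5 and 32.7 in all 6 libraries, and per TPM of Csf1r, a receptor of macrophages, between 36.4 and 55.4, while per TPM of Clec4f, a Kupffer cell lectin, it lay between 4.31 and 63.4. These 3 partners of Cd74 were chosen after their values were seen.

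Kupffer cells, the resident macrophages, followed another course. Their 10 markers summed to 275, 293 and 291 TPM in the vehicle libraries against 243, 253 and 322 TPM with lycorine, a sum led by C6, which hepatocytes also express. The groups did not overlap in 7 of the 8 tested, with lycorine below in 6, against a background of 1.01%. Of these 6, Clec4f was at 64.8, 57.1 and 99.5 TPM in the vehicle libraries against 14.6, 18.7 and 52.8 TPM with lycorine, and Vsig4 at 5.35, 7.44 and 5.37 TPM and 1.71, 2.17 and 1.87 TPM. In none of the 8 tested Kupffer markers did vehicle 1 and lycorine 1 stand above the other 4 libraries, so class II and Kupffer markers did not share a profile.

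Many markers of other antigen-presenting cells were near the floor. Of the dendritic cell markers, Flt3 was at 0.05 to 0.29 TPM and Zbtb46 at 0.38 to 2.20 TPM, and 5 of 12 were tested. The highest of the list was Clec10a, at 1.67 to 9.76 TPM. The list summed to 26.4, 6.66 and 14.3 TPM in the vehicle libraries against 13.9, 9.92 and 8.77 TPM with lycorine. The B cell marker Ms4a1 was at 0.04 to 0.14 TPM, Cd79a was at 0 in lycorine 3 and Fcmr in 2 lycorine libraries, and the list's sum of 19.3 to 306 TPM was mostly Ly6d, at 12.5 to 301 TPM. T and NK cell markers summed to 29.05, 8.24 and 14.07 TPM in the vehicle libraries against 17.4, 9.12 and 5.72 TPM with lycorine, with Cd3d at 0 in lycorine 3 and at most 5.49 TPM and Cd3e between 0.20 and 2.39 TPM. Sinusoidal endothelial markers summed to 166, 47.6 and 191 TPM in the vehicle libraries against 87.3, 58.9 and 82.4 TPM with lycorine, and were led by Stab1, at 17.9 to 93.9 TPM, with Stab2 at 1.48 to 6.14 TPM.

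The class sums were then divided by the sum of each marker list, within each library. Class II per marker varied 1.90-fold for T and NK cells, 1.92-fold for monocytes and macrophages, 2.36-fold for bile duct, 2.70-fold for dendritic cells, 4.56-fold for sinusoidal endothelium, 5.08-fold for hepatocytes, 8.12-fold for Kupffer cells and 11.8-fold for B cells. Class I per marker varied 1.30-fold for hepatocytes, between 0.0937 and 0.122, although the class I sum itself varied 2.92-fold, and at least 3.5-fold for the other 7 lists. The class I sum is almost wholly B2m, H2-K1 and H2-D1, which singly varied 1.31-fold, 1.57-fold and 1.61-fold per hepatocyte sum. Tap1 varied 5.72-fold on that scale, with its highest value in vehicle 3. For H2-K1 per hepatocyte sum all lycorine values lay under all vehicle values, while the groups overlapped for H2-D1, B2m and Tap1. The groups also overlapped for H2-K1 divided by Alb alone. The lower H2-K1 values per hepatocyte sum with lycorine were not tested. The 10 hepatocyte markers, led by Alb and the apolipoprotein Apoa1, summed to 50385, 50160.0 and 18508 TPM in the vehicle libraries against 54156, 54944 and 36193 TPM with lycorine. Class II per bile duct marker was 9.63, 8.22 and 11.9 for the vehicle libraries against 6.0, 5.29 and 5.04 with lycorine, with all lycorine values under all vehicle values, also with Spp1 left out. The same held for class II per B cell marker, and the groups overlapped in the other 14 of the 16 ratios of a class sum to a marker sum. These ratios share their sums, and the share over other ratios was not computed. Among single tested rows the groups did not overlap in 10.6%. All of these are descriptions over 6 libraries that share a total, and the part of cell numbers in the class I and class II levels was not tested.

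**Figure D5:**
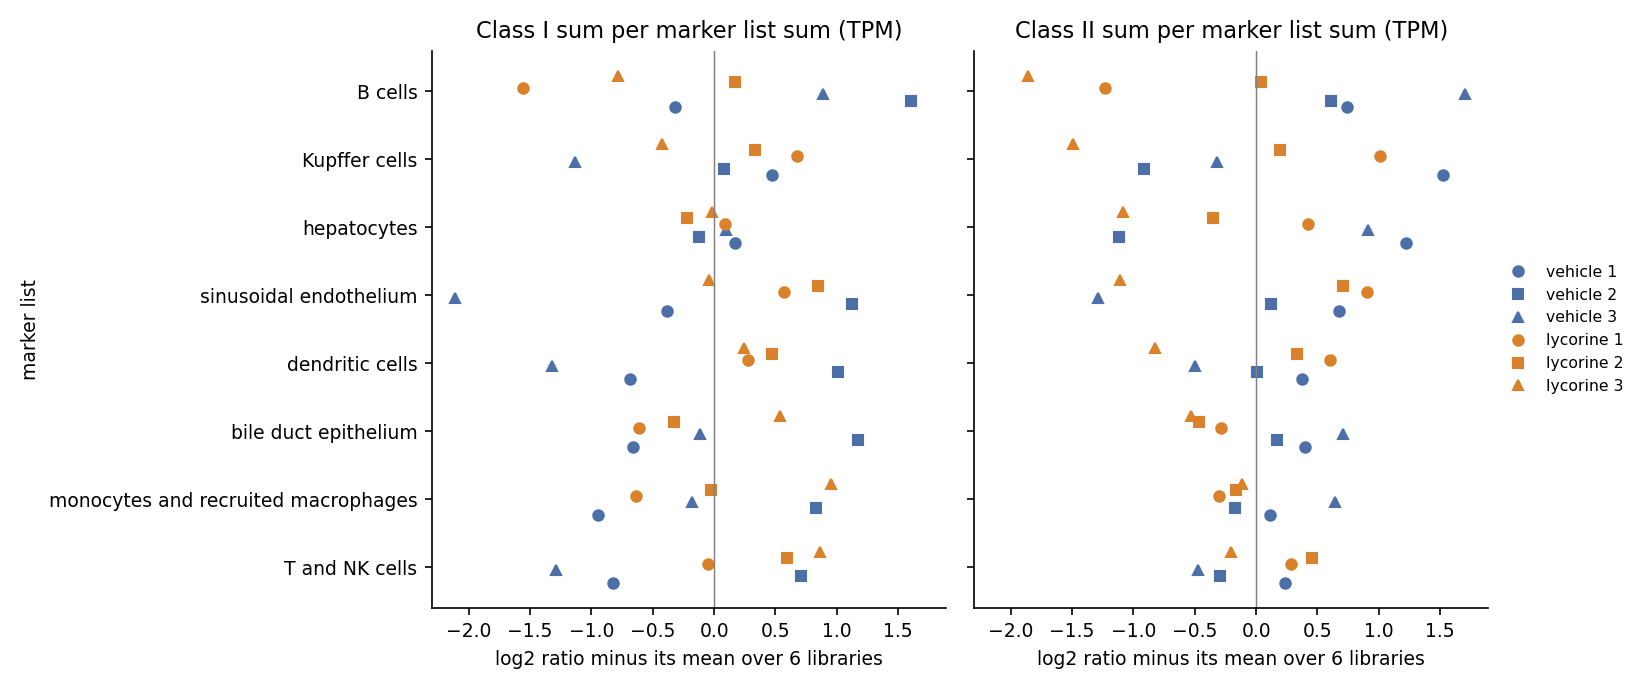
For each marker list, the log2 of the class I sum (left) or class II sum (right) divided by the list's sum, minus its mean over 6 libraries; each point is a library. Class I is tightest against hepatocyte markers (1.30-fold), and class II against T and NK cell and monocyte and macrophage markers (1.90-fold and 1.92-fold).

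Among 6209 protein-coding genes with a mean of at least 5 TPM, those whose log2(TPM + 1) over the 6 libraries was most like the class II mean were Prmt1, P3h3, Igfbp7, Nop2 and Fcer1g, with Pearson r between 0.991 and 0.999, as a description. Fcer1g, a signalling chain of Fc receptors on myeloid cells, was at 54.7, 13.5 and 16.1 TPM in the vehicle libraries against 45.0, 20.9 and 7.04 TPM with lycorine. Igfbp7, a secreted binding protein, was at 404, 96.01 and 117 TPM in the vehicle libraries against 355, 171 and 74.5 TPM with lycorine. For the class I mean they were Rtl8a, Med10, Csnk1a1, Tap2 and Tmem106c, with r between 0.997 and 0.999. An r above 0.9 was held by 259 genes, or 4.17%, for class II and by 1274, or 20.5%, for class I, so the class I profile was the more common one. The points share 6 libraries, their makeup and their scaling.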

How the data were processed

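The authors deposited 1 expression table named for FPKM. Its 6 columns each sum to 1000000 within rounding, so the deposited values were read and tested as TPM. Which aligner, counting tool and gene models made them is not given in the sources used here. GRCm38 and mm10 are the builds listed per the submitters' processing notes. Lycorine columns abbreviate the drug, and vehicle columns, with genotype and number alone, were assigned because no other group was left. Names and coordinates came from GENCODE M21, and promoters from RefSeq (GRCm38.p6).

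The 13854 rows averaging 1 TPM or more were compared with limma 3.58.1 (R 4.3.3) on log2(TPM + 1) (two-sided, with a trend of variance on level), Benjamini-Hochberg adjustment and a threshold of 0.05. Fold changes are on that scale, which understates changes of weakly expressed genes. All 173 list entries were matched, 1 through a RefSeq synonym. The procedure was checked on simulated data. The genes and lists were chosen with earlier results of these data known. Named genes were the 10 genes, up to 4 of each pathway list by smallest p, all transcription factors, the first 2 markers of each list, and the 5 genes most like each class; other genes were named after their values were seen. Single values of 2 genes within this rule are not reported here. Alternatives covered the pseudocount, the filter, scaling, how variance was modelled, array quality weights, a replicate block and libraries left out.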

Additional observations from a re-analysis of the deposited data

How the results depend on the processing

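Of the 9 tested genes 0 were called under the 16 alternatives (H2-Eb1 was not tested at a mean of at least 5 TPM, which leaves it 15), with a lowest limma adjusted p of 0.521. Over all rows the count called was 0, and was 1 for a pseudocount of 0.1, 1 under array quality weights, 5 without vehicle 3 and lycorine 3, and 0 to 2 with 1 library left out; none of these was one of the 9 genes. Rows with an unadjusted p under 0.05 were 386 higher and 90 lower, against 127 and 193 after median-of-ratios scaling, 137 and 158 after quantile normalization and 143 and 104 on protein-coding nuclear genes. The log2 fold changes of B2m and Tap1 stayed above 0 in all 16. That of H2-K1 was -0.25 after median-of-ratios scaling, -0.049 after quantile normalization, -0.21 on protein-coding nuclear genes, -0.064 under array quality weights and -0.29 without vehicle 3 and lycorine 3. That of H2-Eb1 was -0.022 after median-of-ratios scaling and -0.018 on protein-coding nuclear genes. Under array quality weights, then without vehicle 3 and lycorine 3, H2-Aa was at 0.13 and 0.27, Cd74 at 0.12 and 0.14, and H2-DMa at 0.043 and 0.011. With 1 library left out the ranges were -0.45 to 0.41 for H2-K1, -0.090 to 0.79 for H2-D1, -0.95 to 0.66 for H2-Aa, -0.94 to 0.16 for H2-Ab1, -0.23 to 0.65 for H2-Eb1, -0.76 to 0.46 for Cd74 and -0.57 to 0.55 for H2-DMa; the cause was not tested. The class I median ranged from -0.0035 to 0.70, the class II median from -0.70 to 0.49 and the difference of class I and class II from 0.08 to 0.88. Replicate numbers do not pair the libraries by the labels. Deviations of same-numbered libraries correlated at 0.31, 0.05 and 0.29 across genes, and those of differently numbered libraries at -0.34 to 0.21. Whether the numbers mark a shared factor was not tested. With the replicate block 0 rows were called and 1033 had an unadjusted p under 0.05, against 476 without it, and the difference of class I and class II was 0.49. TPM keeps no depth, so counting error is unknown and matters most for H2-DMb1 and H2-Eb1.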

Other observations

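The table holds 45 genes whose symbol starts with H2-, of which 23 were tested, 17 had log2 fold changes above 0 and 0 were called. That is 73.9%, beside 69.9% of all tested rows. The groups did not overlap in 3 of them, H2-Q1, H2-Q2 and H2-T10, all with lycorine above, which is 13.0% beside 9.6% of all tested rows. Outside the lists, H2-Ke6, an enzyme gene of the same chromosomal region with no part in presentation, was at 95.4, 79.4 and 110 TPM in the vehicle libraries against 88.1, 113 and 123 TPM with lycorine. The pseudogene-annotated alpha chain of I-E, H2-Ea-ps, was at 4.28, 0.19 and 3.72 TPM in the vehicle libraries against 1.57, 0.61 and 0.66 TPM with lycorine, which is the range of H2-Eb1 rather than that of H2-Aa. The heavy chain pseudogenes H2-K2 and H2-T-ps were highest in lycorine 1, at 10.6 and 8.55 TPM, and at 3.14 to 6.28 TPM elsewhere.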
